A study of Mus musculus with 18 samples.

Results

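The liver of mice given streptozotocin (STZ) together with alginate oligosaccharide (AOS) was compared with the liver of mice given AOS alone, across all genes that reached 1 RPKM in 3 or more of their 6 libraries, which left 10370 of the 19057 symbols of the table. STZ destroys the insulin-producing beta cells of the pancreas and is used to make rodents diabetic, and AOS is a mixture of short chains cut from alginate, a polysaccharide of brown algae. Both groups were ICR mice (an outbred stock) sampled at 10 weeks of age, with 3 libraries each: AOS carried the label of 10 mg/kg AOS, and STZ+AOS carried the label of STZ with the same dose of AOS, so that AOS was shared by both sides of the comparison and STZ was the only labelled difference. The study was built around STZ mice that received gut microbiota, and its text describes male mice given STZ by injection; how AOS was given to the AOS and STZ+AOS mice, for how long, the hour at which livers were taken and whether the mice were fasted are not given in the sources used here. The same series holds Con (untreated control) and STZ (STZ without AOS), again 3 libraries each, and these served as the second, independent comparison of STZ with its control.

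Insulin reaches the liver first through the portal vein, where it restrains glucose production and drives the storage of sugar as glycogen and fat. When insulin is lacking, the liver turns to making glucose and burning fatty acids, amino acid breakdown rises, and growth hormone signalling in the liver is disturbed. Many liver genes also differ between male and female mice under the control of the rhythm of growth hormone release, and many cycle with the time of day, so both groups of genes were followed beside the metabolic ones.

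Values are RPKM, that is, reads of a gene divided by its length and by the mapped reads of the library. The sum of RPKM was 717904 to 746327 in AOS and 621121 to 642433 in STZ+AOS, and 10053 to 10171 genes in AOS and 10384 to 10409 in STZ+AOS stood at 1 RPKM or more. The major urinary protein (Mup) genes alone held 18.1, 26.2 and 25.9% of the summed RPKM in the AOS mice, and 0.131, 0.123 and 4.53% in the STZ+AOS mice. Albumin (Alb), the main plasma protein made by hepatocytes, stood at 35599, 30405 and 32766 RPKM in AOS and 24773, 31896 and 29649 RPKM in STZ+AOS, and every library held the high hepatocyte transcripts of liver. The depth in reads is not part of RPKM; relative depths read from the smallest steps of 27 low genes were 1.03 to 1.07 for AOS and 0.937 to 0.988 for STZ+AOS.

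Some libraries departed from the rest in ways that touch the results. AOS mouse 3 took values between those of AOS mice 1 and 2: among genes at 5 RPKM or more that differed 2-fold or more between mice 1 and 2, it lay between them in 76 of 77, against 91 of 163 for the same count on STZ+AOS mouse 3. The combination that lay closest to it by least squares gave a weight of 0.34 to mouse 1 and the rest to mouse 2. The beta-globin gene Hbb-bs, at 0.90, 133 and 84.6 RPKM in AOS mice 1, 2 and 3, shows the same order. Con mouse 3 lay between Con mice 1 and 2 in 87 of 88 such genes. Whether these libraries are separate animals was not tested, and p-values here measure only the spread between the deposited libraries. Without AOS mouse 1 the comparison below called 1010 genes, without mouse 2 it called 589, and without mouse 3 it called 530 in place of 2483, and the 530 were all among the 2483. Every one of the 2483 kept its direction without mouse 3, and the largest move of a difference was 0.25 on the log2 scale. A library between the other 2 hardly moves the group mean, so the kept direction is little of a test. As the number called fell so far, the count of each gene group is given with and without AOS mouse 3. Over all 10370 tested genes, 371 were called higher and 159 lower without it, and these are the background for the counts without it.

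STZ+AOS mouse 3 held transcripts of the exocrine pancreas. Of 10 markers of pancreatic acinar cells, 8 besides Cela1 reached 1 RPKM or more there, led by Ctrb1 at 36.5, Cela2a at 10.8 and Amy2a5 at 10.1 RPKM, while these 8 stayed at or under 0.96 RPKM in the other 5 libraries and Prss1 was listed at 0 in all 6. Their summed level with Cela1 ran from 31.0 to 50.01 RPKM in AOS and from 3.5 to 89.5 RPKM in STZ+AOS. Cela1 made up nearly all of the AOS sum and went the other way. It stood at 30.55, 48.8 and 35.86 RPKM in AOS and 3.1, 4.16 and 4.39 RPKM in STZ+AOS. In the limma test described below it was called lower (difference -3.00, adjusted p = 0.000289). STZ+AOS mouse 3 also stood apart on the second principal component of the 12 libraries (38.8, with 9.48% of the variance, against -10.9 to -7.18 for STZ+AOS mice 1 and 2). Without it 3356 genes were called, 2792 higher and 564 lower, and its part is given for some of the results below.

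The contrast of STZ+AOS with AOS was fitted with limma on log2(RPKM + 1), and a gene was called at a Benjamini-Hochberg adjusted p under 0.05 over all 10370 genes; differences below are STZ+AOS minus AOS on that scale, with the standard error of the fit and n = 3 libraries a group. Of the 10370 genes, 2013 (19.4%) were higher and 470 (4.53%) were lower in STZ+AOS. These shares are the background against which the counts of gene groups with all libraries are read. In 5147 genes (49.6%) the 3 mice of one group did not overlap with the 3 of the other. Of the called genes, 407 were higher and 203 lower by 2-fold or more on that scale.

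The excess of higher genes rested on the scale. The median difference over all genes was 0.21 on the deposited scale and 0.01 after median-ratio scaling, in which the median gene sets a common level for all libraries, and the share of higher genes among the called fell from 81.1% to 45.4%. With that scaling 643 genes (6.2%) were higher and 774 (7.46%) were lower. Of the 2013 genes called higher, 643 were also called higher after scaling, 468 of the 470 lower genes were also called lower, and 0 genes were called in opposite directions. The share of RPKM in Mup genes moved with the groups as given above, and its part in this shift was not tested.

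The genes described first, which rose with the smallest adjusted p, encode enzymes of drug, steroid and aldehyde metabolism and regulators of transcription. Akr1b7 (chr6:34412334-34423142, GRCm38, + strand), an aldo-keto reductase, stood at 0.11, 0.05 and 0.11 RPKM in AOS and 13.6, 11.3 and 10.3 RPKM in STZ+AOS. It was near 0 in every AOS mouse and the groups did not overlap (difference 3.54 ± 0.12, adjusted p = 2.94e-05). Cyp2a5 (chr7:26835305-26843548, + strand), a cytochrome P450 that oxidizes coumarin, rose from 73.5, 36.4 and 45.9 RPKM to 4369, 5718 and 4788 RPKM, a 95.5-fold ratio of means (difference 6.60 ± 0.26, adjusted p = 3.91e-05). Por (chr5:135670033-135735326, + strand), the reductase that passes electrons to all microsomal P450 enzymes, stood at 46.4, 44.3 and 45.4 RPKM in AOS and 451, 424 and 613 RPKM in STZ+AOS (difference 3.40 ± 0.16, adjusted p = 8.05e-05). The others shown were Trim24 (chr6:37870811-37966296, + strand), a coregulator of nuclear receptors, which went from 2.32, 2.30 and 2.56 to 11.3, 11.9 and 10.8 RPKM (difference 1.86 ± 0.10, adjusted p = 0.000179), and Ciart, a repressor of the circadian clock described with the clock genes.

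The 6 genes that fell with the smallest adjusted p were all far down in every STZ+AOS mouse. Hsd3b5 (chr3:98618634-98630252, - strand), a steroid dehydrogenase of male mouse liver, fell from 142, 225 and 193 RPKM to 0.22, 0.23 and 0.09 RPKM (difference -7.29 ± 0.18, adjusted p = 7.58e-06). Serpina12 (chr12:104028769-104044443, - strand), which encodes the secreted protein vaspin, went from 15.9, 15.9 and 14.6 RPKM to 0.28, 0.15 and 0.14 RPKM (difference -3.79 ± 0.10, adjusted p = 1.05e-05). Elovl3 (chr19:46131897-46135694, + strand), an elongase of very long chain fatty acids, went from 72.3, 151 and 119 RPKM to 0.07, 0.06 and 0.15 RPKM (difference -6.66 ± 0.25, adjusted p = 3.48e-05). None of the 3 reached 1 RPKM in any STZ+AOS mouse. The N-acetyltransferase genes Nat8f7 (chr6:85706727-85713205, - strand) and Nat8 (chr6:85830388-85832082, - strand), which lie near each other, fell by 4.43 and 3.82 on the log2 scale (adjusted p = 2.38e-05 and 4.8e-05). Col27a1 (chr4:63214004-63334991, + strand), a fibrillar collagen gene, fell from 9.59, 9.20 and 9.47 RPKM to 1.03, 1.11 and 0.87 RPKM (difference -2.38 ± 0.10, adjusted p = 4.96e-05). All 11 genes were called after median-ratio scaling and without AOS mouse 3.

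**Figure D1:**
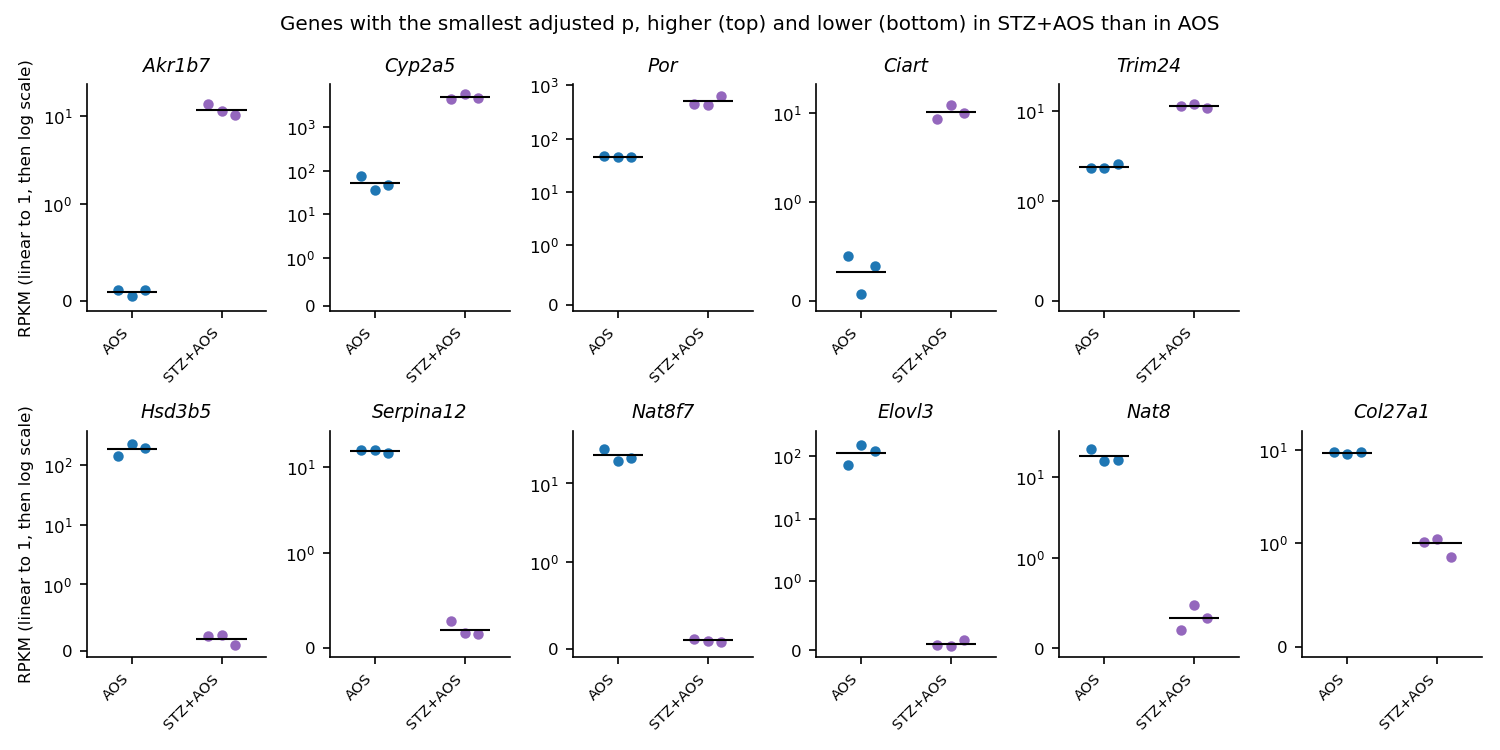
RPKM (vertical axis, linear up to 1 and logarithmic above) of these 11 genes in the 3 AOS and 3 STZ+AOS mice, with 1 point a mouse and a line at the mean. In each panel the 2 groups are separated: Akr1b7 stood at 0.11 RPKM or less in AOS and at 10.3 RPKM or more in STZ+AOS.

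Genes known for higher expression in male than in female mouse liver fell: of 20 tested members of that list 19 were called lower and 0 higher, with a median difference of -5.50; 18 fell after median-ratio scaling and 12 without AOS mouse 3. Selenbp2, a selenium-binding protein, stood at 397, 1409 and 990.4 RPKM in AOS and 8.05, 15.6 and 11.4 RPKM in STZ+AOS (difference -6.06 ± 0.46, adjusted p = 0.000551). Nudt7, a coenzyme A diphosphatase of peroxisomes, fell from 415, 499 and 462 to 37.5, 50.02 and 83.1 RPKM (difference -3.06 ± 0.27, adjusted p = 0.001). Cyp7b1, which hydroxylates oxysterols, fell from 80.4, 220.1 and 178 to 12.3, 18.5 and 19.4 RPKM (difference -3.08 ± 0.37, adjusted p = 0.00285). The groups did not overlap for any of these, and the lowest AOS mouse lay above the highest STZ+AOS mouse in all 20 members.

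The Mup genes encode pheromone carriers that are secreted into male urine. All 19 tested Mup genes fell, by 1.29 to 8.70 on the log2 scale, and 8 of them were called without AOS mouse 3. Mup1, one of the most studied of them, stood at 45112, 50505 and 55099.5 RPKM in AOS and 104, 109 and 5607 RPKM in STZ+AOS, so STZ+AOS mouse 3 kept far more of it than the others (difference -6.96 ± 1.43, adjusted p = 0.0167; difference -8.86 without that mouse). Cyp4a12a, an arachidonic acid hydroxylase, was also highest in mouse 3 among the STZ+AOS mice, with 375, 381 and 379 RPKM in AOS and 1.01, 0.52 and 20.4 RPKM in STZ+AOS (difference -6.56 ± 0.91, adjusted p = 0.0048). Copies of Mup genes are near-identical, so reads could have been split between them and single members are uncertain.

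Genes known for higher expression in female liver rose: 16 of 19 tested members were called higher and 0 lower, with a median difference of 4.69; 15 rose after median-ratio scaling and 13 without AOS mouse 3. Fmo2, a flavin monooxygenase, rose from 1.53, 0.96 and 1.56 RPKM to 29.1, 16.6 and 24.6 RPKM (difference 3.35 ± 0.22, adjusted p = 0.000289). Cyp17a1, a steroid hydroxylase, went from 2.11, 0.50 and 0.89 RPKM to 119, 129 and 53.02 RPKM (difference 5.51 ± 0.39, adjusted p = 0.000438). Sult2a1, a sulfotransferase of steroids and bile acids, was at 0, 0.14 and 0 RPKM in AOS and at 87.4, 781 and 66.6 RPKM in STZ+AOS (difference 7.32 ± 0.84, adjusted p = 0.00256). STZ+AOS mouse 2 was the highest for Sult2a1 and STZ+AOS mouse 3 the lowest, yet all 3 lay above every AOS mouse. Cux2, a transcription factor of female liver, rose from 0.07, 0.08 and 0.07 RPKM to 7.26, 4.87 and 2.46 RPKM (difference 2.36 ± 0.29, adjusted p = 0.00297). Prlr, the prolactin receptor, and Cyp2c40 were not called, with differences of -0.25 ± 0.24 and -0.22 ± 0.35.

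In the growth hormone and IGF axis 3 of 16 tested members rose and 4 fell; 3 rose and 5 fell after median-ratio scaling, and 0 rose and 2 fell without AOS mouse 3. Ghr, the growth hormone receptor, fell from 243, 213 and 225 RPKM to 63.2, 99.3 and 94.3 RPKM (difference -1.42 ± 0.19, adjusted p = 0.00392). Igfals, which stabilizes circulating IGF1, fell from 62.9, 76.8 and 64.9 RPKM to 19.5, 30.6 and 18.1 RPKM (difference -1.57 ± 0.20, adjusted p = 0.00371). Igf1 itself, the main growth factor the liver releases in response to growth hormone, stood at 107, 108 and 109 RPKM in AOS and 98.0, 98.0 and 83.8 RPKM in STZ+AOS, a difference of -0.21 ± 0.11 (adjusted p = 0.186, and -0.46 with adjusted p = 0.0411 after median-ratio scaling). Igfbp2, a binding protein of IGF1, rose from 156, 314 and 231 to 567, 1206 and 1635 RPKM (difference 2.203 ± 0.42, adjusted p = 0.0133). Socs3, an inhibitor of cytokine signalling, rose from 2.64, 1.96 and 1.72 to 9.77, 6.52 and 23.6 RPKM (difference 2.03 ± 0.40, adjusted p = 0.015). The calls of Igfbp2 and Socs3 were lost without AOS mouse 3 (adjusted p = 0.0617 and 0.0703).

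Genes of glucose production rose, with 10 of 13 tested members higher and 0 lower (median 1.06). After median-ratio scaling 5 rose and 1 fell, and 4 rose without AOS mouse 3. Without STZ+AOS mouse 3, 11 rose and 1 fell. Pck1, the rate-limiting enzyme of gluconeogenesis, stood at 539.9, 553 and 552 RPKM in AOS and 1869.8, 2526 and 1861 RPKM in STZ+AOS, a ratio of means of 3.80 (difference 1.91 ± 0.17, adjusted p = 0.00104). Got1, the aspartate aminotransferase of the cytosol, rose from 73.3, 55.9 and 59.3 to 376, 363 and 462 RPKM (difference 2.65 ± 0.16, adjusted p = 0.000239). Sds, which turns serine into pyruvate, rose from 153, 80.8 and 96.5 to 494, 389 and 334 RPKM (difference 1.91 ± 0.26, adjusted p = 0.00457). Ppargc1a, a coactivator of the gluconeogenic programme, rose from 0.91, 0.85 and 0.82 to 4.33, 4.27 and 8.48 RPKM (difference 1.79 ± 0.23, adjusted p = 0.00358). These 4 are the ones called without AOS mouse 3, and none overlapped between groups. G6pc, the last step of glucose release, was not called: it stood at 351, 325 and 333 RPKM in AOS and 201, 163 and 312 RPKM in STZ+AOS, lower in every STZ+AOS mouse than in any AOS mouse (difference -0.63 ± 0.23, adjusted p = 0.0847), and it was called lower after median-ratio scaling (-0.88, adjusted p = 0.0466). Gpt, the alanine aminotransferase whose activity is read in blood as a sign of liver injury, stood at 123, 95.7 and 101 and 256, 209 and 114 RPKM (difference 0.78 ± 0.29, adjusted p = 0.0841; difference 1.12 with adjusted p = 0.00498 without STZ+AOS mouse 3).

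Among 16 tested genes of insulin signalling 6 rose and 1 fell; 2 rose and 1 fell after median-ratio scaling, and 1 rose without AOS mouse 3. Leaving out STZ+AOS mouse 3 gave 8 that rose and 1 that fell. Igfbp1, a target of FoxO1 that insulin represses, stood at 35.2, 59.6 and 49.3 RPKM in AOS and 481, 305 and 3757 RPKM in STZ+AOS. The third STZ+AOS mouse was several times above the other STZ+AOS mice, and all 3 were above AOS (difference 4.10 ± 0.85, adjusted p = 0.0173; difference 3.002, adjusted p = 0.00145 without it; adjusted p = 0.0716 without AOS mouse 3). Trib3, a pseudokinase that binds AKT, rose from 4.0, 1.61 and 2.33 to 11.98, 26.9 and 20.3 RPKM (difference 2.49 ± 0.33, adjusted p = 0.0041) and was the member called without AOS mouse 3. Small rises of Pik3ca (0.54 ± 0.11), Akt1 (0.65 ± 0.14) and Insr (0.58 ± 0.13) lost their calls after median-ratio scaling.

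Of 16 tested genes of glucose uptake, glycolysis and fructose use, 7 rose and 2 fell; after median-ratio scaling 4 rose and 2 fell, and without AOS mouse 3 only Gpi1 was called. Leaving out STZ+AOS mouse 3 gave 10 that rose and 2 that fell. Pklr, the liver pyruvate kinase, fell from 125, 57.5 and 82.6 to 34.6, 41.5 and 23.7 RPKM (difference -1.35 ± 0.31, adjusted p = 0.023). Pfkfb3, which makes an activator of glycolysis, rose (difference 0.91 ± 0.18, adjusted p = 0.0147). Gpi1, glucose-6-phosphate isomerase (difference 0.92 ± 0.12, adjusted p = 0.00383), and Eno1, an enolase (1.24 ± 0.24, adjusted p = 0.0138), rose.

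Of 13 tested glycogen genes 3 rose and 1 fell; 1 rose and 3 fell after median-ratio scaling, which turned the median from 0.10 to -0.09, 1 rose and 1 fell without AOS mouse 3, and 5 rose and 2 fell without STZ+AOS mouse 3. Ppp1r3c, which brings protein phosphatase 1 to glycogen, fell from 42.1, 41.4 and 43.0 RPKM to 14.0, 16.6 and 11.9 RPKM (difference -1.52 ± 0.13, adjusted p = 0.001). Ugp2, which makes UDP-glucose, rose from 97.2, 90.1 and 97.5 RPKM to 227, 336 and 274 RPKM (difference 1.53 ± 0.16, adjusted p = 0.00174). Both were called in each of these settings. Pgm1, which joins glycogen to glycolysis (difference 0.59 ± 0.14, adjusted p = 0.0267), and Ppp1r3g, another phosphatase subunit (difference 3.01 ± 0.86, adjusted p = 0.0444), rose on the deposited scale and lost their calls after median-ratio scaling and without AOS mouse 3.

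Genes that build, lengthen and desaturate fatty acids fell, with 11 of 20 tested members lower and 1 higher (median -0.88); 14 fell and 1 rose after median-ratio scaling, and 9 fell and 0 rose without AOS mouse 3. Scd1, the desaturase that makes oleic acid, stood at 2033, 895 and 1328 RPKM in AOS and 107, 41.9 and 42.7 RPKM in STZ+AOS, a 22.2-fold drop of the mean (difference -4.51 ± 0.43, adjusted p = 0.00135). Every STZ+AOS mouse lay far below the lowest AOS mouse. Acly, which makes cytosolic acetyl-CoA from citrate, fell from 91.2, 70.5 and 77.4 to 29.3, 37.8 and 33.2 RPKM (difference -1.23 ± 0.14, adjusted p = 0.00273). Acss2, which makes it from acetate, fell from 166, 99.2 and 114 to 19.8, 36.0 and 24.6 RPKM (difference -2.204 ± 0.26, adjusted p = 0.00276). Fasn, fatty acid synthase, fell from 112, 46.9 and 68.6 to 17.2, 16.9 and 24 RPKM (difference -1.84 ± 0.30, adjusted p = 0.00873), and so did Mlxipl, the gene of the carbohydrate-responsive factor ChREBP (difference -0.90 ± 0.13, adjusted p = 0.00551). Srebf1, the insulin-driven regulator of these genes, stood at 73.5, 40.1 and 49.8 RPKM and 22.7, 26.9 and 38.7 RPKM, lower in all 3 STZ+AOS mice but not called (difference -0.86 ± 0.26, adjusted p = 0.054; adjusted p = 0.0314 after median-ratio scaling). The member that rose was Lpin1, a phosphatidic acid phosphatase that is also a coactivator of fat oxidation, from 12.1, 7.75 and 9.19 to 51.4, 32.0 and 172 RPKM (difference 2.66 ± 0.55, adjusted p = 0.0171), a call lost without AOS mouse 3 (adjusted p = 0.073).

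**Figure D2:**
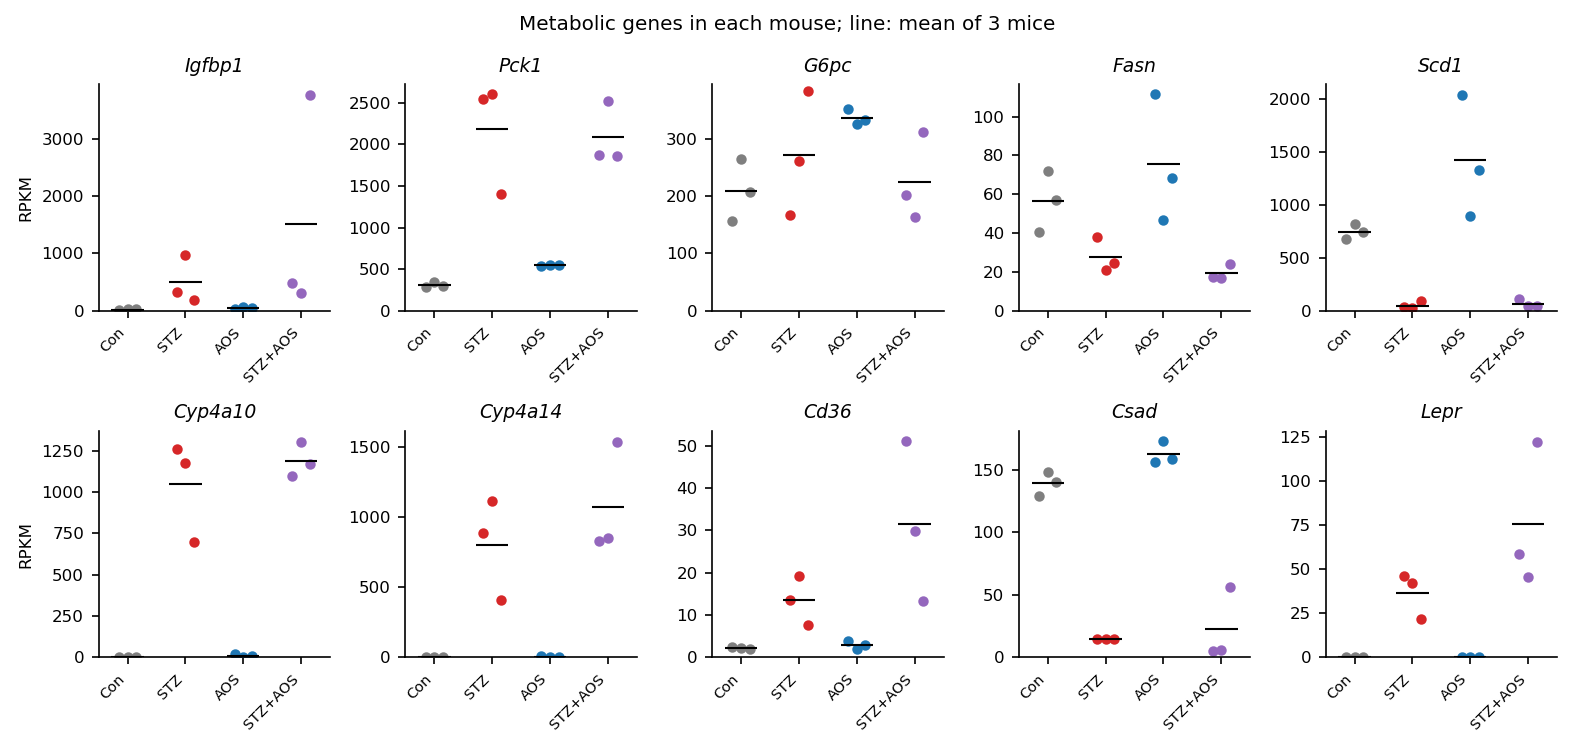
RPKM (vertical axis, linear from 0) of 10 metabolic genes in Con, STZ, AOS and STZ+AOS, with 1 point a mouse and a line at the mean of 3 mice. In AOS, Cyp4a10 stood at 17.2 RPKM or less and in STZ+AOS at 1097 RPKM or more, while Fasn and Scd1 fell and Igfbp1 was far higher in STZ+AOS mouse 3 than in the other mice.

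In the list of peroxisomal oxidation, omega hydroxylation and acyl-CoA thioesterases 11 of 21 tested members rose and 0 fell (median 0.74); 10 rose and 1 fell after median-ratio scaling, and 6 rose without AOS mouse 3. Cyp4a10 and Cyp4a14 hydroxylate fatty acids at the omega end and are targets of the fatty acid receptor PPAR alpha. Cyp4a10 stood at 17.2, 3.72 and 8.03 RPKM in AOS and 1097, 1305 and 1168 RPKM in STZ+AOS (difference 7.01 ± 0.43, adjusted p = 0.000258). Cyp4a14 stood at 8.78, 1.06 and 3.37 RPKM in AOS and 826, 852 and 1535 RPKM in STZ+AOS (difference 7.85 ± 0.54, adjusted p = 0.000379). The ratios of means were 123 and 243, and no mouse overlapped, though close copies in this family can share reads. The thioesterases Acot1 (difference 2.17 ± 0.19, adjusted p = 0.001) and Acot2 (difference 1.83 ± 0.25, adjusted p = 0.0047), which free fatty acids from coenzyme A, also rose.

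In mitochondrial oxidation and ketogenesis 7 of 21 tested members rose and 0 fell (median 0.38), and only Eci2 was called after median-ratio scaling or without AOS mouse 3. Without STZ+AOS mouse 3, 10 rose and 0 fell. Eci2, an enoyl-CoA isomerase found in peroxisomes as well as mitochondria, rose from 80.2, 84.0 and 79.2 to 134, 165 and 175 RPKM (difference 0.94 ± 0.13, adjusted p = 0.00492). Cpt1a, the gate of fatty acid entry into mitochondria, rose from 62.2, 51.6 and 52.9 to 81.0, 156 and 103 RPKM (difference 0.97 ± 0.23, adjusted p = 0.0276). The acyl-CoA dehydrogenases Acadl (0.87 ± 0.18, adjusted p = 0.0186) and Acadm (0.85 ± 0.20, adjusted p = 0.0251), which open each round of the cycle, rose with it.

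Of 13 other targets of PPAR alpha 4 rose and 3 fell; 2 rose and 3 fell after median-ratio scaling, and 1 rose and 1 fell without AOS mouse 3. Cd36, a fatty acid transporter, rose from 3.79, 1.87 and 2.82 RPKM to 51.0, 29.9 and 13.3 RPKM (difference 2.93 ± 0.44, adjusted p = 0.00666). Fgf21, a hormone of fasting, fell from 2.81, 2.2 and 2.29 RPKM to 0.81, 1.21 and 0.65 RPKM (difference -0.87 ± 0.14, adjusted p = 0.00844). Fabp1, the main fatty acid carrier of hepatocytes, fell from 9499, 10277 and 9385 RPKM to 811, 4064 and 2259 RPKM, lowest in STZ+AOS mouse 1 (difference -2.31 ± 0.53, adjusted p = 0.024). Angptl4, an inhibitor of lipoprotein lipase, rose from 45.1, 46.1 and 45.3 to 97.2, 72.3 and 112 RPKM (difference 1.01 ± 0.17, adjusted p = 0.00874). Ppara, the gene of the receptor itself, stood at 24.7, 20.2 and 22.3 and 17.1, 27.8 and 23.0 RPKM (difference -0.01 ± 0.18, adjusted p = 0.977).

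In cholesterol synthesis 4 of 24 tested members fell and 0 rose (median -0.33); 7 fell after median-ratio scaling, 1 fell without AOS mouse 3, and 6 fell without STZ+AOS mouse 3. Pmvk, a kinase of the mevalonate pathway, fell from 62.0, 52.6 and 52.9 RPKM to 15.3, 22.4 and 20.8 RPKM (difference -1.48 ± 0.16, adjusted p = 0.00197) and was the member called without AOS mouse 3. Sc5d (difference -1.69 ± 0.32, adjusted p = 0.0132), Dhcr7 (-1.04 ± 0.26, adjusted p = 0.0292) and Fdps (-1.40 ± 0.39, adjusted p = 0.0417) also fell. Of 21 apolipoprotein and lipoprotein genes 7 rose and 2 fell, 3 rose and 2 fell after median-ratio scaling, which turned the median from 0.23 to -0.02, and 2 rose and 1 fell without AOS mouse 3. Apoa1, the main protein of HDL, fell from 10716, 10273 and 10022 to 5727, 5145 and 5109 RPKM (difference -0.96 ± 0.20, adjusted p = 0.0167). Pltp, which transfers phospholipids between lipoproteins, fell from 52.6, 22.6 and 30.0 to 7.45, 8.64 and 7.04 RPKM (difference -1.97 ± 0.28, adjusted p = 0.0053). Lpl, lipoprotein lipase, rose on the deposited scale only (difference 0.59 ± 0.11, adjusted p = 0.0125; adjusted p = 0.0776 after median-ratio scaling). Scarb1, the HDL receptor, and Abcg5, a sterol exporter, rose (difference 1.08 ± 0.15, adjusted p = 0.00474 and difference 1.14 ± 0.12, adjusted p = 0.00212).

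In bile acid synthesis and transport 9 of 22 tested members rose and 4 fell; 4 rose and 4 fell after median-ratio scaling, and 4 rose and 3 fell without AOS mouse 3. Of the 9 that rose, 6 encode transporters. Abcc4, a basolateral exporter, rose from 0.37, 0.23 and 0.31 RPKM to 6.61, 4.14 and 4.13 RPKM (difference 2.17 ± 0.17, adjusted p = 0.00066), and Abcc3, another, rose as well (difference 1.32 ± 0.16, adjusted p = 0.00273). Slco1a4, an organic anion importer, rose from 15.6, 9.63 and 12.1 RPKM to 106, 147 and 75.2 RPKM (difference 3.01 ± 0.26, adjusted p = 0.001). Slc10a2, the apical sodium-dependent bile acid importer, fell from 8.21, 5.03 and 6.57 RPKM to 0.72, 0.19 and 0.37 RPKM (difference -2.41 ± 0.20, adjusted p = 0.000828). Cyp7a1, the rate-limiting enzyme of bile acid synthesis, stood at 8.92, 16.9 and 14.3 RPKM in AOS and 1.91, 63.8 and 34.1 RPKM in STZ+AOS: STZ+AOS mouse 1 was below and mice 2 and 3 above every AOS mouse (difference 0.43 ± 1.04, adjusted p = 0.777). Cyp8b1, which makes cholic acid, was also lowest in STZ+AOS mouse 1, at 13.8, 273 and 310.4 RPKM against 232, 205 and 208 RPKM in AOS (difference -0.998 ± 1.08, adjusted p = 0.509).

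In the list of drug-metabolizing P450 genes of the Cyp2b, Cyp2c and Cyp3a families, which also holds Por, genes rose in 15 of 22 tested members and fell in 2 (median 1.12); 11 rose and 3 fell after median-ratio scaling, and 7 rose and 1 fell without AOS mouse 3. Cyp2b10, the classical target of the xenobiotic receptor CAR, rose from 6.36, 1.25 and 3.06 RPKM to 67.0, 63.4 and 264 RPKM (difference 4.69 ± 0.62, adjusted p = 0.0043). Cyp2b13, which is also a female-biased gene, rose from 1.14, 0.27 and 0.76 to 31.2, 106 and 35.0 RPKM (difference 4.89 ± 0.45, adjusted p = 0.00117). Cyp2c37 rose from 36.6, 30.0 and 32.9 to 554, 992 and 489 RPKM (difference 4.25 ± 0.26, adjusted p = 0.000258) and Cyp2c39 from 93.0, 43.2 and 63.0 to 520.1, 653 and 799 RPKM (difference 3.33 ± 0.29, adjusted p = 0.001). Cyp3a11, the most abundant member in AOS, rose less, from 3085, 2759 and 2973 to 5059, 6251 and 7861 RPKM (difference 1.10 ± 0.22, adjusted p = 0.016). Close copies within these families can share reads, so values of single members are uncertain. The genes of the receptors CAR and PXR, Nr1i3 (difference 0.66 ± 0.28, adjusted p = 0.123) and Nr1i2 (difference 0.37 ± 0.21, adjusted p = 0.216), were not called.

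Amino acid breakdown and the urea cycle rose broadly, with 19 of 32 tested members higher and 0 lower (median 0.87); 15 rose after median-ratio scaling and 8 without AOS mouse 3. Without STZ+AOS mouse 3, 25 rose and 0 fell. Oat, which breaks down ornithine, rose from 91.6, 68.8 and 76.1 RPKM to 519.5, 1216 and 785 RPKM (difference 3.32 ± 0.30, adjusted p = 0.00105). Slc7a2, an importer of arginine and lysine, rose from 27.3, 23.4 and 26.6 RPKM to 102, 140.3 and 208 RPKM (difference 2.44 ± 0.24, adjusted p = 0.00157). Cps1, the entry enzyme of the urea cycle, rose from 517, 406 and 438 RPKM to 855, 1001 and 1059.7 RPKM (difference 1.10 ± 0.16, adjusted p = 0.00562). Asl, which releases arginine in the same cycle, rose from 208, 164 and 169.8 to 1194, 825 and 467 RPKM (difference 2.10 ± 0.32, adjusted p = 0.00709). Otc, another enzyme of the cycle, was not called (difference -0.22 ± 0.27, adjusted p = 0.559).

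Sulfur amino acid genes moved in both directions: 8 of 12 tested members rose and 2 fell, 5 rose and 2 fell after median-ratio scaling, and only Mat1a was called without AOS mouse 3. Mat1a, an enzyme that makes S-adenosylmethionine, rose from 700.1, 476 and 538 RPKM to 4712, 2767 and 2816 RPKM (difference 2.56 ± 0.26, adjusted p = 0.00165). Cth, which makes cysteine from cystathionine (difference 1.66 ± 0.28, adjusted p = 0.00955), and Ahcy, which clears S-adenosylhomocysteine (difference 1.15 ± 0.20, adjusted p = 0.0108), rose. Csad, the decarboxylase that leads to taurine, fell from 156, 173 and 158 RPKM to 5.26, 5.49 and 56.0 RPKM (difference -3.63 ± 0.79, adjusted p = 0.0197). STZ+AOS mouse 3 kept several times the level of the other STZ+AOS mice, with a difference -4.68 and adjusted p = 5.79e-06 without that mouse; without AOS mouse 3 the adjusted p was 0.0786. Slc6a6, the taurine transporter, rose from 16.7, 18.6 and 18 to 29.1, 28.2 and 26.6 RPKM (difference 0.63 ± 0.10, adjusted p = 0.00774; adjusted p = 0.053 after median-ratio scaling).

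The leptin receptor gene Lepr went from near absence to clear expression, from 0.37, 0.13 and 0.19 RPKM in AOS to 58.6, 45.4 and 122 RPKM in STZ+AOS (difference 5.83 ± 0.33, adjusted p = 0.000221). In the list of the leptin receptor, Id genes and the response to bone morphogenetic proteins (BMP), 8 of 15 tested members rose and 0 fell; 5 rose after median-ratio scaling and 4 without AOS mouse 3. Stat3, which carries the leptin signal (difference 0.91 ± 0.14, adjusted p = 0.00739), Leprot, a neighbour of Lepr on the same chromosome (difference 0.79 ± 0.14, adjusted p = 0.0105), and Smad9, a BMP effector (difference 0.92 ± 0.14, adjusted p = 0.00727), were called in all 3 settings. Id1, a BMP target that blocks differentiation factors, rose from 4.12, 4.85 and 5.04 to 24.9, 8.07 and 17.9 RPKM (difference 1.54 ± 0.35, adjusted p = 0.0228), a call lost after median-ratio scaling (adjusted p = 0.0508) and without AOS mouse 3 (adjusted p = 0.0817).

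**Figure D3:**
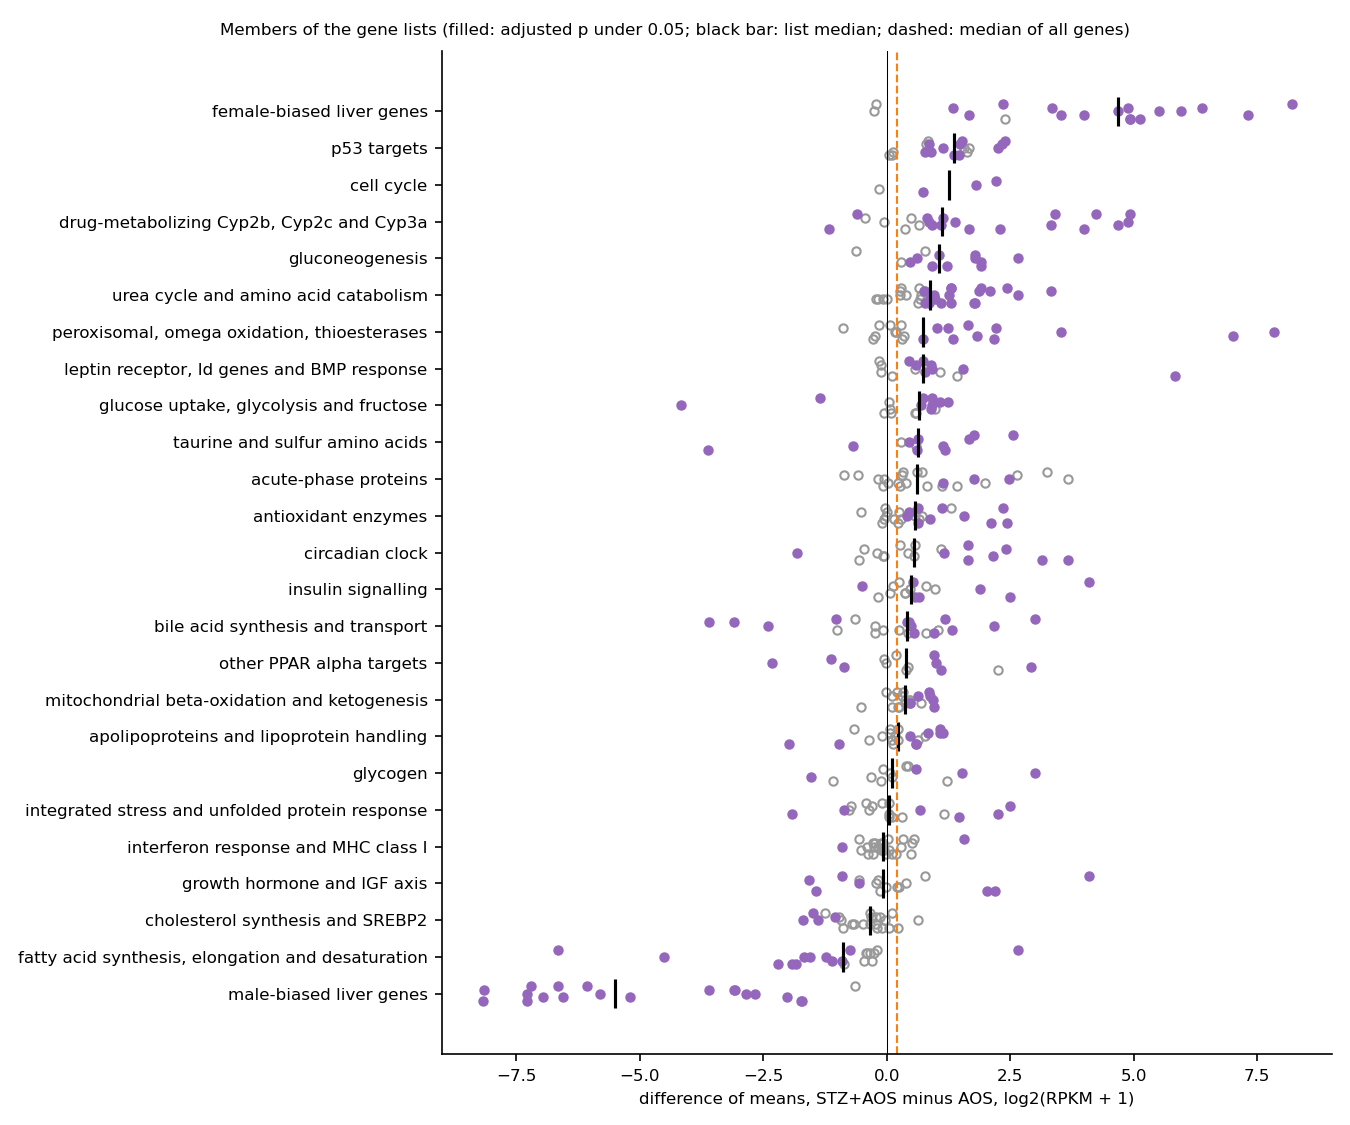
Difference of means, STZ+AOS minus AOS, on the log2(RPKM + 1) scale (horizontal axis) for each tested member of 25 gene lists (rows), filled where the adjusted p was under 0.05, with the median of the list as a black bar and the median of all genes (0.21) as a dashed line. Male-biased genes lie furthest to the left (median -5.50) and female-biased genes furthest to the right (median 4.69).

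Among clock genes 7 of 18 tested members rose and 1 fell (median 0.56), with the same counts after median-ratio scaling; 6 rose and 1 fell without AOS mouse 3, and 10 rose and 3 fell without STZ+AOS mouse 3. The core clock pairs CLOCK or NPAS2 with BMAL1 (the product of Arntl) on E-box sequences, and the PER and CRY proteins and CIART repress that pair. The REV-ERB proteins (Nr1d1 and Nr1d2) are further repressors within the clock, while DBP and TEF act on D-box sequences. Promoter windows of RefSeq (GRCm38.p6), the 250 bases before each start, were found by symbol for 16 clock genes. They are printed 5′ to 3′ for the clock genes that were called and whose window holds an E-box (CACGTG, its own reverse complement) or a D-box (TTATGTAA, either strand), with these letters in capitals.
Ciart, chr3:95882229-95882478, - strand: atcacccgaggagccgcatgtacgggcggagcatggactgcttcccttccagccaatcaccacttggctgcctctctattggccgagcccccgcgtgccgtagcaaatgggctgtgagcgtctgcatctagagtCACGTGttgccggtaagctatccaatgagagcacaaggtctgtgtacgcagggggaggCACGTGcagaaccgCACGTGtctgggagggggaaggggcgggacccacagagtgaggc
Per1, chr11:69098699-69098948, + strand: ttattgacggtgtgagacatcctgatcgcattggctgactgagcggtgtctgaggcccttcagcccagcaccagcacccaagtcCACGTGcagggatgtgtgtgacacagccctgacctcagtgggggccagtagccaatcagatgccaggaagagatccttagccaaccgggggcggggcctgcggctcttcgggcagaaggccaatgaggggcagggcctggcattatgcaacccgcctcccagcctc
Per3, chr4:151044666-151044915, - strand: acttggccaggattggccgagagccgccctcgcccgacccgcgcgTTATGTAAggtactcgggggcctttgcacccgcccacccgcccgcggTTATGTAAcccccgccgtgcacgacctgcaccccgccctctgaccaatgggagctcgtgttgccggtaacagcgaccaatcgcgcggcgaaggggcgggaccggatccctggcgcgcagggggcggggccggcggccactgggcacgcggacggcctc
Tef, chr15:81811164-81811413, + strand: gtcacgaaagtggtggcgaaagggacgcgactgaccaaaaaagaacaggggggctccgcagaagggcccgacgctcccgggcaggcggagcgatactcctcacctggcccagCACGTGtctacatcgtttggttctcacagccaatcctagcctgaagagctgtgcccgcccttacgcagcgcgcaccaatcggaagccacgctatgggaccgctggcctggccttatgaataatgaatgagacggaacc
The window of Ciart holds 3 E-boxes, those of Per1 and Tef 1 each (a second start of Tef has another window with 1), and that of Per3 holds 2 D-boxes. An E-box lies in 6.02% of 32851 such windows of all genes and a D-box in 0.819%. Of the 16 clock genes, which have 21 windows, 5 hold an E-box and 1 a D-box in at least 1 window. The clock counts are of genes and the shares are of windows, so they are not directly comparable. A match in letters does not show binding, and no binding was measured.

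Ciart stood at 0.45, 0.07 and 0.35 RPKM in AOS and 8.65, 12.4 and 10.0 RPKM in STZ+AOS (difference 3.14 ± 0.17, adjusted p = 0.000179). Per1, a repressor of the clock, went from 2.88, 1.11 and 1.40 RPKM to 11.1, 9.57 and 22.7 RPKM (difference 2.42 ± 0.35, adjusted p = 0.0053), and Per3, another, from 1.06, 0.40 and 0.55 RPKM to 4.14, 7.28 and 2.24 RPKM (difference 1.65 ± 0.33, adjusted p = 0.0156). All 3 genes were higher in every STZ+AOS mouse than in any AOS mouse. The output factor Dbp rose from 3.41, 0.36 and 1.78 RPKM to 16.6, 76.5 and 24.3 RPKM (difference 3.67 ± 0.61, adjusted p = 0.00896), with STZ+AOS mouse 2 far above the others. Tef rose from 14.2, 6.30 and 9.30 RPKM to 39.7, 58.1 and 41.7 RPKM (difference 2.16 ± 0.28, adjusted p = 0.00358). Npas2, an activator, fell from 2.93, 3.61 and 3.40 RPKM to 0.28, 0.22 and 0.18 RPKM (difference -1.81 ± 0.11, adjusted p = 0.000239). Arntl, the gene of the partner of NPAS2, overlapped between groups, at 11.2, 12.7 and 11.8 and 6.77, 3.85 and 16.9 RPKM (difference -0.55 ± 0.42, adjusted p = 0.348; difference -1.07, adjusted p = 0.012 without STZ+AOS mouse 3).

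Nr1d1 did not pass the test here, at 30.7, 10.0 and 16.9 RPKM in AOS and 23.0, 54.1 and 45.7 RPKM in STZ+AOS (difference 1.10 ± 0.44, adjusted p = 0.1), and its AOS level was well above that of Con, 1.22, 3.68 and 2.72 RPKM. STZ mice without AOS had 32.9, 35.1 and 22.9 RPKM. The STZ effect on Nr1d1 was 3.19 without AOS and 1.10 with it, a difference of -2.09 (95% interval -3.35 to -0.82, unadjusted p = 0.00391) whose adjusted p of 0.999 did not pass. Nr1d2 rose in both (31.7, 28.8 and 14.1 RPKM in STZ, 21.1, 32.3 and 31.1 RPKM in STZ+AOS, 2.05, 3.03 and 2.49 RPKM in Con and 10.4, 6.39 and 8.16 RPKM in AOS). The hour of sampling of each mouse is not given in the sources used here, and its part in these values was not tested.

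**Figure D4:**
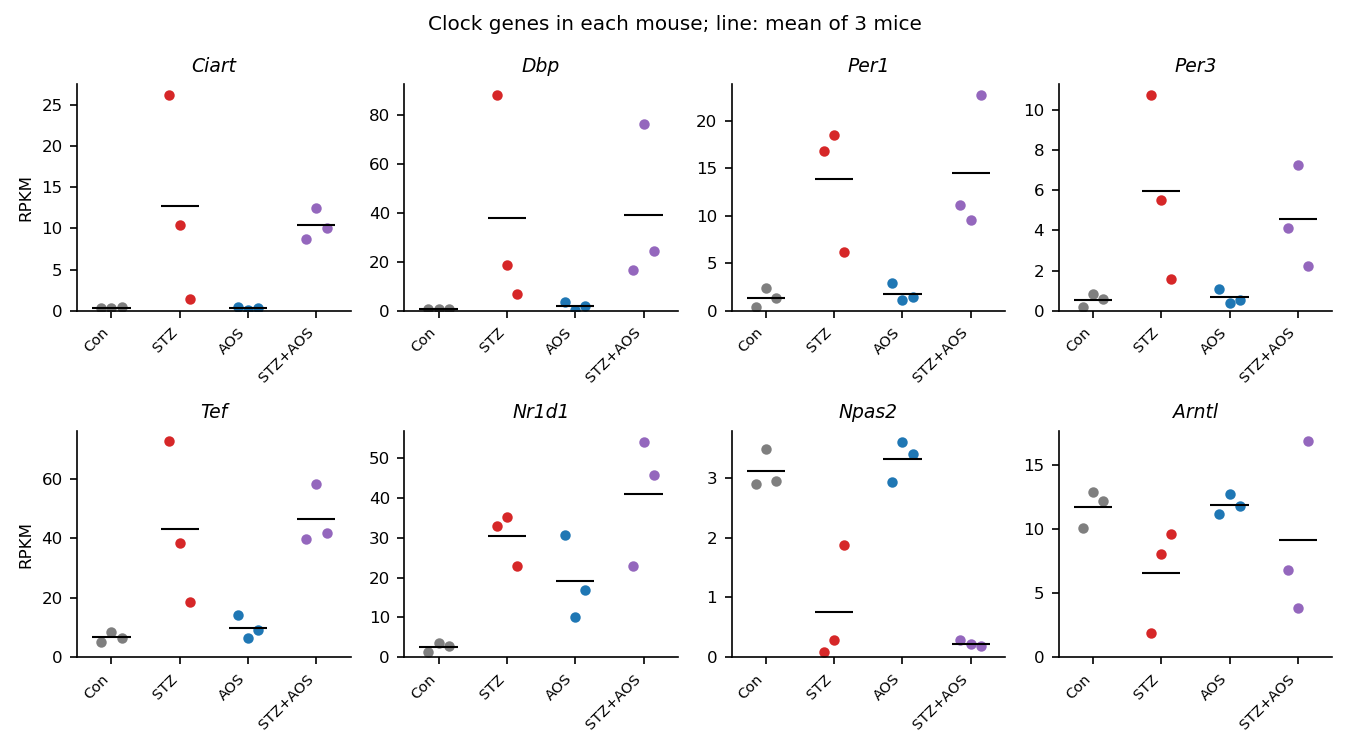
RPKM (vertical axis, linear from 0) of 8 clock genes in Con, STZ, AOS and STZ+AOS, with 1 point a mouse and a line at the mean of 3 mice. Ciart, Dbp, Per1, Per3 and Tef lie higher and Npas2 lower in the 3 STZ+AOS mice than in the 3 AOS mice, while AOS mice stand at 10.0 RPKM or more of Nr1d1 against 3.68 or less in Con.

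Targets of the tumour suppressor p53 rose: 11 of 19 tested members were higher and 0 lower (median 1.35), 9 rose after median-ratio scaling and 7 without AOS mouse 3. Without STZ+AOS mouse 3, 14 rose and the median was 0.95. Phlda3, an inhibitor of AKT, rose from 0.05, 0.14 and 0.23 RPKM to 4.56, 6.46 and 4.13 RPKM (difference 2.39 ± 0.16, adjusted p = 0.000353). Aen, an exonuclease of apoptosis, rose from 6.80, 5.23 and 5.0 RPKM to 19.0, 16.7 and 18.8 RPKM (difference 1.53 ± 0.13, adjusted p = 0.001). Ccng1, a cyclin that p53 induces, rose from 10.4, 8.05 and 9.73 RPKM to 23.8, 33.8 and 26.8 RPKM (difference 1.48 ± 0.16, adjusted p = 0.00194). Eda2r, a member of the tumour necrosis factor receptor family, rose from 0.06, 0.03 and 0.05 to 1.05, 1.81 and 2.32 RPKM (difference 1.35 ± 0.18, adjusted p = 0.0039). Mdm2, the ligase that degrades p53, rose from 7.30, 8.40 and 7.92 to 16.5, 16.4 and 23.8 RPKM (difference 1.15 ± 0.16, adjusted p = 0.00492). Trp53 itself, which encodes p53, stood at 13.7, 14.2 and 14.7 and 16.1, 15.3 and 12.7 RPKM (difference 0.04 ± 0.12, adjusted p = 0.806). Bax, which opens the mitochondrial membrane in apoptosis, rose by 0.77 ± 0.17 (adjusted p = 0.0226, 0.0813 after median-ratio scaling and 0.0984 without AOS mouse 3), and its counterpart Bcl2l1 had a difference of 0.80 ± 0.32 (adjusted p = 0.102).

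Antioxidant enzymes rose in 10 of 25 tested members and fell in 0 (median 0.58); 5 rose and 1 fell after median-ratio scaling, 4 rose without AOS mouse 3, and 15 rose and 1 fell without STZ+AOS mouse 3. The 4 called without AOS mouse 3 are conjugating and reducing enzymes known as targets of the stress sensor NRF2. Gsta2, a glutathione transferase, rose from 43.4, 35.8 and 35.2 RPKM to 197, 264 and 176 RPKM (difference 2.43 ± 0.18, adjusted p = 0.000457). Nqo1, a quinone reductase, rose from 2.59, 2.31 and 2.23 RPKM to 18.01, 12.9 and 10.7 RPKM (difference 2.11 ± 0.18, adjusted p = 0.001). Gsta1 (difference 2.36 ± 0.26, adjusted p = 0.00212) and Srxn1, which repairs peroxiredoxins (difference 1.56 ± 0.20, adjusted p = 0.00371), also rose. Of the superoxide dismutases, which break down superoxide, Sod3 was called on the deposited scale (difference 0.40 ± 0.12, adjusted p = 0.0496), and Sod1 (-0.10 ± 0.16, adjusted p = 0.667) and Sod2 (0.30 ± 0.17, adjusted p = 0.231) were not. Cat, catalase, stood at 1332, 1352 and 1379 and 756, 1157 and 948 RPKM, lower in all 3 STZ+AOS mice but not called (difference -0.53 ± 0.19, adjusted p = 0.0776), and was the member called lower after median-ratio scaling (adjusted p = 0.0362).

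In the integrated stress and unfolded protein responses 4 of 18 tested members rose and 2 fell; 3 rose and 5 fell after median-ratio scaling, which turned the median from 0.05 to -0.19, and 2 rose and 2 fell without AOS mouse 3. Sdf2l1, a chaperone cofactor of the endoplasmic reticulum, fell from 23.0, 31.8 and 25.4 RPKM to 8.53, 5.58 and 5.19 RPKM (difference -1.91 ± 0.20, adjusted p = 0.00166). Sesn2 (difference 1.47 ± 0.24, adjusted p = 0.00882) and Gdf15 (difference 2.26 ± 0.43, adjusted p = 0.0136), both also p53 targets, rose, the latter lost without AOS mouse 3 (adjusted p = 0.0644). The chaperone Hspa5, a hallmark of the unfolded protein response, was not called (difference -0.30 ± 0.20, adjusted p = 0.284).

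Acute-phase proteins varied widely between mice. Of 23 tested members 3 rose and 0 fell, 2 rose after median-ratio scaling, 7 rose without STZ+AOS mouse 3, and 0 were called without AOS mouse 3. Saa1, which the liver secretes in large amounts in inflammation, stood at 278, 61.1 and 131 RPKM in AOS, 3430.5, 199.8 and 33.6 RPKM in STZ+AOS, 6422, 296 and 3569.8 RPKM in Con and 28.04, 454 and 46.4 RPKM in STZ. STZ+AOS mouse 1 and Con mice 1 and 3 carried the high values, and AOS and STZ+AOS overlapped (difference 1.13 ± 1.52, adjusted p = 0.6). Orm2, another such protein, followed the same mice, at 33.1, 11.6 and 19.6 RPKM in AOS and 2489, 180.1 and 40.5 RPKM in STZ+AOS (difference 3.68 ± 1.33, adjusted p = 0.0798). Cd14, a receptor of endotoxin, rose from 1.46, 2.18 and 1.75 to 28.1, 6.42 and 16.4 RPKM (difference 2.48 ± 0.45, adjusted p = 0.0115), and Serpina3n, a protease inhibitor, from 357, 309.9 and 324 to 2179.7, 789 and 822 RPKM (difference 1.76 ± 0.38, adjusted p = 0.0191). Lbp, which carries endotoxin to that receptor, rose on the deposited scale (difference 1.14 ± 0.32, adjusted p = 0.0416). Hamp, the gene of the iron hormone hepcidin, which has a close copy, was not called (difference 1.43 ± 0.49, adjusted p = 0.0724). Without AOS mouse 3 the adjusted p of Cd14 was 0.0552 and that of Serpina3n was 0.0808.

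Of 26 tested interferon response and MHC class I genes 1 rose and 1 fell, and 0 rose and 2 fell after median-ratio scaling. Usp18, which removes ISG15 from proteins, rose on the deposited scale (difference 1.57 ± 0.39, adjusted p = 0.0305; adjusted p = 0.0748 after median-ratio scaling), and Psmb9, a subunit of the immunoproteasome, fell (difference -0.91 ± 0.20, adjusted p = 0.0194). The peptide transporter gene Tap2 (difference -0.37 ± 0.13, adjusted p = 0.0815) and Nlrc5, an activator of MHC class I genes (difference 0.49 ± 0.19, adjusted p = 0.0942), were not called on that scale, and Tap2 was called lower after median-ratio scaling (adjusted p = 0.0339). Only 4 of 18 cell cycle genes passed the filter on low values. Of these Ccnd1, Myc and Pcna rose, Pcna not after median-ratio scaling (adjusted p = 0.0767), with Ccnd1 at 0.93, 2.29 and 1.42 RPKM in AOS and 4.96, 14.1 and 6.40 RPKM in STZ+AOS (difference 1.81 ± 0.36, adjusted p = 0.015), while Tyms, which makes thymidylate, was not called (difference -0.16 ± 0.12, adjusted p = 0.36). None of these genes was called without AOS mouse 3.

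Markers of other cell types were read beside these groups, and in bulk tissue fewer cells of a type and less RNA per cell cannot be told apart. The 4 markers of T and B cells in the table summed to 1.91 to 2.89 RPKM in AOS and 0.560 to 1.65 RPKM in STZ+AOS. None of them passed the filter on low values, so none was tested. Cd3g and Cd79a were lower in every STZ+AOS mouse than in any AOS mouse, while Cd3e and Ms4a1 overlapped between the groups. The 9 markers of Kupffer cells, the macrophages of the liver, summed to 133 to 182 RPKM in AOS and 172 to 245 RPKM in STZ+AOS, and 2 of them were called higher, 1 of them after median-ratio scaling, with Marco, a scavenger receptor, rising from 1.84, 3.46 and 2.97 to 30.8, 11.7 and 17.3 RPKM (difference 2.40 ± 0.33, adjusted p = 0.00488) and Clec4f, the marker most particular to these cells, at 23.0, 33.0 and 30.3 and 31.8, 29.3 and 28.6 RPKM. The 5 neutrophil markers summed to 2.43 to 4.10 RPKM in AOS and 5.42 to 20.1 RPKM in STZ+AOS, with the high values of the acute-phase genes and of the neutrophil sum both in STZ+AOS mouse 1. The 7 stellate cell and fibroblast markers summed to 83.3 to 93.0 RPKM in AOS and 132 to 155 RPKM in STZ+AOS, mostly from Dcn, which was called (difference 0.77 ± 0.11, adjusted p = 0.00594), while the collagen gene Col1a1 stayed at or under 1.02 RPKM in all 6 libraries. The 5 erythroid markers summed to 2112 to 2742 RPKM in AOS and 280 to 1502 RPKM in STZ+AOS, and Alas2, the first enzyme of heme synthesis in red cells, fell from 97.0, 94.9 and 90.3 to 2.93, 8.62 and 13.6 RPKM (difference -3.53 ± 0.43, adjusted p = 0.00294). Of the 5 adipocyte markers Fabp4 rose (difference 1.304 ± 0.25, adjusted p = 0.014) and the other 4 stayed under 1 RPKM in all 6 libraries. Of the 6 endothelial and 3 cholangiocyte markers that were tested 0 were called. The 5 hepatocyte markers summed to 56197 to 62128 RPKM in AOS and 34111 to 42214 RPKM in STZ+AOS: Ttr, Serpina1c and Apoa1, which encode plasma proteins, fell, Cps1 rose and Alb was not called. Without AOS mouse 3 the calls of cell markers were fewer. Fabp4 was no longer called, and 1 Kupffer cell marker was called higher. Of the hepatocyte markers 1 was called higher and 1 lower. Dcn and Alas2 kept their calls. The part of these marker shifts in the results above was not tested.

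The same STZ contrast without AOS called 2294 genes higher (22.1%) and 352 lower (3.39%) in STZ against Con on the same 10370 genes, with no library in common. Of the 2483 genes called with AOS, 1531 (61.7%) were also called without it, which is 57.9% of the 2646 called there, and all 1531 had the same direction. The sign of the difference was the same in 2460 of the 2483 (99.1%). On the deposited scale both contrasts leaned upward, with a median difference over all genes of 0.214 with AOS and 0.215 without. The share of same signs over all genes or after median-ratio scaling was not computed, so this count has no background here. Across the 10370 genes, which are not independent replicates, the 2 differences had a Pearson r of 0.88 and a Spearman rho of 0.76. The distances of the 3 STZ+AOS mice from the AOS mean were 75.9 to 79.6 (Euclidean, on the log2 scale over these genes), while STZ mice 1 and 2 lay 89.3 and 88.0 from the Con mean and STZ mouse 3 lay 52.7 from it. STZ mouse 3 held 19.2% of its RPKM in Mup genes, and without it 4454 genes were called in STZ against Con. Without Con mouse 3, which lay between Con mice 1 and 2, 397 genes were called there in place of 2646.

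Whether AOS changed the effect of STZ was tested as the difference between the 2 effects over the 12 libraries. The limma test of that interaction called 0 genes (0%), with 425 genes (4.10%) at an unadjusted p under 0.05, and the adjusted p of each gene named here was 0.999. Among the 2483 genes called with AOS, the median absolute interaction was 0.17 and the median half-width of its 95% interval was 0.48, so that differences of the median size were not detectable with 3 libraries a group. Leaving out Con mouse 3 and AOS mouse 3 together also called 0 genes, but with fewer libraries that fit was less able to call any.

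**Figure D5:**
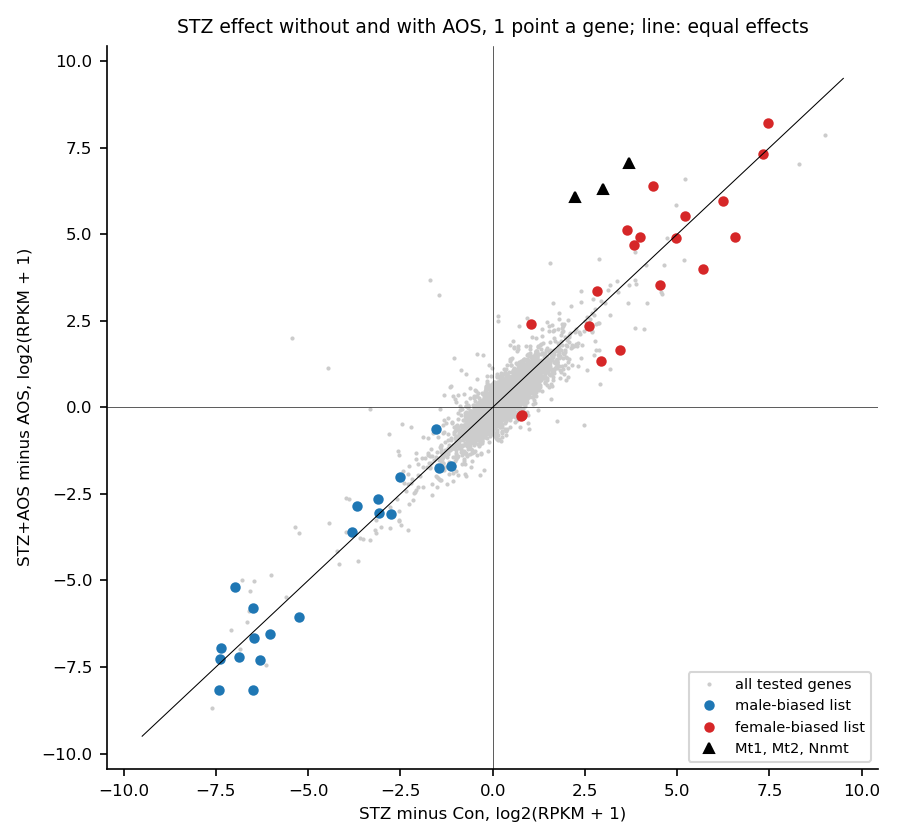
Difference STZ minus Con (horizontal axis) against STZ+AOS minus AOS (vertical axis) on the log2(RPKM + 1) scale, 1 point for each of 10370 genes, with male-biased genes in blue, female-biased genes in red, Mt1, Mt2 and Nnmt as triangles and a line where both effects are equal. Points lie along the line (Pearson r = 0.88), and the triangles lie above it.

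The genes with the smallest interaction p are given without a call. A more positive STZ effect with AOS had the smallest p in Arhgef16 (1.16, 95% interval 0.62 to 1.70), Scara5 (2.06, 0.98 to 3.15), Bak1 (0.67, 0.31 to 1.02), Psmc3ip (0.82, 0.39 to 1.26), Sfi1 (0.77, 0.35 to 1.18) and Myd88 (0.67, 0.28 to 1.07). A more negative one had it in H2-T24 (-1.06, -1.61 to -0.51), Gm46403 (-1.19, -1.84 to -0.55), Tent5c (-0.74, -1.16 to -0.31), Pltp (-1.63, -2.61 to -0.66), Gbe1 (-0.58, -0.93 to -0.23) and Nr1d1, given above. The ferritin receptor gene Scara5 shows what lies behind such a value: it stood at 12.03, 4.08 and 8.39 RPKM in Con and 0, 0.20 and 0.47 RPKM in STZ, against 2.83, 1.94 and 2.29 RPKM in AOS and 1.94, 0.22 and 1.13 RPKM in STZ+AOS. Fgf21 fell with AOS (-0.87) and stood at 0.98, 0.78 and 1.0 RPKM in Con and 0.34, 0.76 and 0.89 RPKM in STZ (difference -0.22), and all 3 AOS mice lay above all 3 Con mice. The interaction of -0.65 (unadjusted p = 0.0104) did not pass after adjustment.

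For mitochondrial oxidation the counts differed between the 2 backgrounds, 7 of 21 members with AOS and 18 of 21 without, and for acute-phase proteins 3 members rose with AOS while 6 fell without it. These counts set called against uncalled genes and 0 members of either list passed the interaction test (2 and 6 had an unadjusted p under 0.05), so a difference between backgrounds was not shown. The median differences were 0.38 with AOS and 0.74 without in mitochondrial oxidation. Male-biased genes had medians of -5.50 and -5.64, female-biased genes of 4.69 and 3.99, p53 targets of 1.35 and 0.87, and clock genes of 0.56 and 0.63. The drop of Scd1 (-4.51 with AOS and -4.16 without) and Csad (-3.63 and -3.17) and the rise of Igfbp1 (4.10 and 4.16) are set side by side here, with intervals of the interaction of -1.91 to 1.20, -2.41 to 1.49 and -2.52 to 2.39. These intervals reach past a difference of 1 on the log2 scale in both directions.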

How the data were processed

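Liver RNA-seq of 18 libraries in 6 groups of 3 was deposited as 1 table. Per the file headers and the paper's methods, the authors gave each gene symbol a value in RPKM, normalized for gene length and mapped reads. Their methods name SOAPaligner, and the submitters' processing notes list Bowtie 0.12.2 and mm10; which of the aligners made the table is not given in the sources used here. All columns matched a sample label, so that 0 columns were left unmapped. Each of the 26 date-like symbols (gene names altered by spreadsheet software) was kept as written, and of 3 repeated symbols the row with the higher mean kept the name.

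Genes at 1 RPKM or more in at least 3 of the 6 AOS and STZ+AOS libraries were tested on log2(RPKM + 1) with limma 3.58.1 (trend and moderated statistics, R 4.3.3) and Benjamini-Hochberg adjustment over all of them; fold changes on this scale understate changes of low genes. The same genes served STZ against Con and the interaction over 12 libraries, which compares the STZ effects. The scripts' test was also run on simulated data with independent noise in each library, which does not cover a library lying between the others of its group. A count test, which the authors used, was not run because counts were not part of the files used here. The depth in reads is unknown, so no counting intervals are given.

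Named genes were the 6 rising and 6 falling genes of lowest adjusted p that changed 2-fold or more without overlap, up to 4 members of each gene list by adjusted p, genes of the study's own readouts, and the 6 smallest interaction p in each direction. Some genes that these rules name are not reported here. Every other list member or cell marker named was chosen after its values were seen. The members and lists were chosen with earlier results of these data known. Alternatives changed the scaling (median ratio, median centring, quantile), pseudocount, filter, trend, groups in the fit, threshold, replicate block and libraries. Gene positions came from GENCODE (GRCm38), matched for 527 of 528 symbols looked up. Gene symbols were used as the table gives them. Genes overlapping others or with near-identical copies, such as Mup, Cyp2b, Cyp4a, Sult2a and Saa members, are uncertain because the sources used here do not say how shared reads were assigned.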

Additional observations from a re-analysis of the deposited data

How the results depend on the processing

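The 2483 genes called in STZ+AOS against AOS became 1417 after median-ratio scaling, 1360 after median centring, 1439 after quantile normalization, 4027 in a fit of all 6 groups, 63 at an adjusted p under 0.001 with 2-fold, and 681 at 2-fold with no test; leaving out 1 library gave 530 to 3356, lowest without AOS mouse 3 and highest without STZ+AOS mouse 3. Other pseudocounts, filters, no trend and a fit of 4 groups kept the count within 1.5 times. The 214 called list members became 96 to 264 without 1 library. The 2646 genes of STZ against Con became 1590, 1586 and 1593 after these scalings, 17 under the strict threshold, 681 at 2-fold with no test, and 397 to 4454 without 1 library. The 397 came without Con mouse 3 and the 4454 without STZ mouse 3. The interaction called 0 to 1 genes without 1 library (1 without STZ mouse 3, STZ+AOS mouse 1 or STZ+AOS mouse 3), and 120 genes passed 2-fold with no test. The cause of these shifts was not tested. A fit with the replicate number as a block called 1701 genes here, 1425 in STZ against Con and 0 in the interaction. Same-numbered AOS and STZ+AOS mice had correlations of their deviations of 0.14, 0.024 and 0.068. AOS mice 1 and 3 correlated best with their own number, and AOS mouse 2 with STZ+AOS mouse 3. So few correlations cannot decide whether same-numbered mice were paired, and the main fit used no pairing.

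Of the 139 called genes named in the text 92 kept their call in each alternative in which they were tested gene by gene and 47 lost it in at least 1; 0 of the 139 changed sign, while some genes not called did. On the log2 scale Bak1 went to -0.038, Clec4f to -0.17 and Trp53 to -0.19 after median-ratio scaling, to -0.0598, -0.18 and -0.20 after median centring, and to -0.070, -0.16 and -0.21 after quantile normalization, which took Alb to 0.82. Without 1 library, Clec4f ran from -0.079 to 0.17, Cyp2c40 from -0.63 to 0.033, Cyp7a1 from -0.47 to 1.77, Cyp8b1 from -1.76 to 0.44, Ppara from -0.16 to 0.17, Prlr from -0.44 to 0.035, Saa1 from -0.66 to 2.65 and Trp53 from -0.022 to 0.14. The depth in reads is unknown, so how far counting error limits low genes could not be computed.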

Other observations

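Beyond the gene groups of the report, several genes chosen after their values were seen stood out in STZ+AOS against AOS by the same limma test. The metallothioneins, small proteins that bind zinc and copper, rose: Mt1 stood at 70.2, 32.5 and 36.1 RPKM in AOS and 4384, 2081 and 2884 RPKM in STZ+AOS (difference 6.06 ± 0.36, adjusted p = 0.000239), and Mt2 at 43.8, 11.7 and 18.4 RPKM and 2114, 1318 and 1964 RPKM (difference 6.30 ± 0.44, adjusted p = 0.000408). Nnmt, which methylates nicotinamide, went from 1.44, 0.49 and 0.77 RPKM to 493, 212 and 145 RPKM (difference 7.06 ± 0.43, adjusted p = 0.000253). All 3 genes were called without AOS mouse 3 as well. The STZ effect without AOS was 2.24 for Mt1, 2.998 for Mt2 and 3.71 for Nnmt, and the interaction was 3.82 (95% interval 1.13 to 6.51), 3.31 (0.62 to 5.99) and 3.35 (0.89 to 5.82), each with an adjusted p of 0.999.

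Among genes of secreted and membrane proteins, Nrg4, a growth factor of the epidermal growth factor family, went from 1.21, 1.52 and 1.18 RPKM to 20.9, 9.02 and 28.01 RPKM (difference 3.01 ± 0.36, adjusted p = 0.00276). Sucnr1, the receptor of succinate, went from 17.9, 12.1 and 14.0 RPKM to 1.79, 2.39 and 1.26 RPKM (difference -2.48 ± 0.19, adjusted p = 0.000627). Aqp8, a water channel of hepatocytes, went from 228, 138 and 159 RPKM to 9.72, 34.3 and 13.4 RPKM (difference -3.29 ± 0.43, adjusted p = 0.00387). Sort1, a sorting receptor that handles lipoproteins, went from 2.96, 3.72 and 3.52 RPKM to 0.69, 0.53 and 0.69 RPKM (difference -1.42 ± 0.11, adjusted p = 0.000673). In these 4 genes no AOS mouse overlapped with an STZ+AOS mouse, and each was called without AOS mouse 3.

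Eif4ebp3, a repressor of cap-dependent translation, rose from 13.4, 13.8 and 14.0 RPKM to 213, 119 and 131 RPKM (difference 3.35 ± 0.21, adjusted p = 0.000287), and Fabp5, a fatty acid binding protein, fell from 62.7, 85.6 and 72.3 RPKM to 3.71, 7.29 and 5.58 RPKM (difference -3.54 ± 0.22, adjusted p = 0.000258). Usp2, a deubiquitinase whose transcript cycles with the clock, went from 0.82, 0.42 and 0.77 RPKM to 7.21, 13.8 and 6.14 RPKM (difference 2.52 ± 0.27, adjusted p = 0.00194). Car3, a carbonic anhydrase, stood at 4071, 3484 and 3766 RPKM in AOS and 4.14, 230.3 and 506 RPKM in STZ+AOS (difference -5.48 ± 1.53, adjusted p = 0.0413; adjusted p = 0.125 without AOS mouse 3). Dio1, which activates thyroid hormone, stood at 26.7, 34.5 and 32.1 RPKM and 8.23, 0.71 and 0.54 RPKM (difference -3.46 ± 0.64, adjusted p = 0.0124; adjusted p = 0.058 without AOS mouse 3), against 73.2, 54.5 and 66.4 RPKM in Con and 0.44, 0.69 and 0.70 RPKM in STZ.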
